A study of Homo sapiens with 4 samples.

Results

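The AXL, MET and DDR receptor families and their ligand GAS6 were examined in MDA-MB-231 cells after knockdown of hTrmt13. The 8 genes were taken by symbol as members of these families, and all 8 were present among the 28930 gene symbols of the count table: AXL, TYRO3, MERTK, GAS6, MET, MST1R, DDR1 and DDR2. MDA-MB-231 is an established line of human breast cancer cells that lack the hormone receptors and HER2 amplification and look mesenchymal. hTrmt13, encoded by TRMT13, is a tRNA ribose methyltransferase, and the study asked which genes it regulates as transcription targets. The knockdown group held 2 RNA-seq libraries of cells given an siRNA against hTrmt13, and the control group held 2 libraries of the same line labelled as control siRNA. All 4 libraries came from a single cell line, and the labels do not say whether the replicates were separate cultures, so p-values measure the spread between these libraries, which may be technical.

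The 7 receptors are receptor tyrosine kinases, single-pass membrane proteins that pass an outside signal to the cell by phosphorylating tyrosines. AXL, TYRO3 and MERTK form the TAM family, which binds GAS6 and protein S, vitamin K-dependent proteins that bridge the receptor to phosphatidylserine on membranes. MET is the receptor for hepatocyte growth factor (HGF), and MST1R, also called RON, is the receptor for macrophage-stimulating protein, encoded by MST1. DDR1 and DDR2 are unusual in that their ligands are collagens of the matrix. In breast cancer, AXL is known as a receptor of mesenchymal, invasive cells, and DDR1 as the DDR receptor of epithelial cells, with DDR2 more typical of stromal and mesenchymal cells.

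Sequencing depth ran from 9777267 to 13098985 counts per library, so that 1 CPM (the count scaled to library size with TMM factors) stood for 9.58 to 13.4 counts. TRMT13 had 3.52 and 4.79 CPM in the knockdown libraries, against 14.9 and 18.9 CPM in the control libraries, so each library went with its label. The line's mesenchymal markers were expressed. The 7 mesenchymal markers (VIM, CD44, MSN, LGALS1, CAV1, TGFBI and AXL itself) summed to 5176 to 5255 CPM in knockdown and 5350 to 5576 CPM in control. VIM, LGALS1 and MSN made up most of this sum, which can hide differences of the others. Of the 7 log2 fold changes 4 were negative and 3 positive. With edgeR 0 passed, and with DESeq2 2 passed, where 1129 of all 13022 genes did. The lowest was that of TGFBI, at 65.4 ± 29.1 CPM in knockdown and 166.6 ± 83.1 CPM in control (SD, n = 2 each; edgeR adjusted p = 0.131). ESR1 and PGR, the hormone receptor genes that triple-negative cells lack, had 0 counts in all 4 libraries. The 9 luminal and hormone receptor markers, which include both, summed to 1110 and 936 CPM in knockdown and 1297 and 1174 CPM in control. Most of this came from KRT8 (mean 543.9 CPM in knockdown and 661.9 CPM in control), KRT18 (321.1 and 431.4 CPM) and ERBB2 (144.5 and 118.0 CPM). The 6 blood cell markers summed to at most 1.12 CPM in knockdown and 1.04 CPM in control. The 6 fibroblast and endothelial markers summed to 13.3 and 13.4 CPM in knockdown against 32.3 and 28.2 CPM in control, mostly from PDGFRB, a receptor tyrosine kinase itself, and CDH5, while DCN and PDPN had 0 counts in all 4. CDH5, the endothelial cadherin, had 0 and 2 counts in knockdown against 63 and 49 counts in control and was called lower (edgeR adjusted p = 0.0296). The part of these markers in the results was not tested.

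The promoters of the 4 receptors that stood lower in both knockdown libraries at an unadjusted p under 0.05 are shown first, since the study concerns transcription. Each is the window of 250 bases before the most upstream start that RefSeq lists for the gene (build GRCh38.p14, not the build named for the counts), written 5′ to 3′ on the gene's strand. Capitals mark GGGCGG, the GC box bound by Sp1-family factors, or its reverse complement.
DDR1, chr6:30880720-30880969, plus strand: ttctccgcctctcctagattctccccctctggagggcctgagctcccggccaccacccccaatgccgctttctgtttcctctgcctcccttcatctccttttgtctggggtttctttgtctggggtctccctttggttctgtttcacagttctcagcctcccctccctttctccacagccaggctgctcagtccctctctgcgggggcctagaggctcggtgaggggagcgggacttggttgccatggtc
MET, chr7:116671946-116672195, plus strand: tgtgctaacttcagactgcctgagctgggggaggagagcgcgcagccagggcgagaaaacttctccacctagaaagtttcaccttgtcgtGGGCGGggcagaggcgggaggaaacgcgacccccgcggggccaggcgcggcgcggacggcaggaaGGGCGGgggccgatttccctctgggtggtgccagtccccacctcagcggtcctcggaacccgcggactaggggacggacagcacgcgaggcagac
AXL, chr19:41218973-41219222, plus strand: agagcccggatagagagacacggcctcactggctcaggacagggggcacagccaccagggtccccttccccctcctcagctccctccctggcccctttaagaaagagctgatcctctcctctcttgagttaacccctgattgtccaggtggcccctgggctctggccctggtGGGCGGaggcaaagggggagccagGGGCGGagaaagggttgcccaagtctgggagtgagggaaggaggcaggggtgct
MERTK, chr2:111898357-111898606, plus strand: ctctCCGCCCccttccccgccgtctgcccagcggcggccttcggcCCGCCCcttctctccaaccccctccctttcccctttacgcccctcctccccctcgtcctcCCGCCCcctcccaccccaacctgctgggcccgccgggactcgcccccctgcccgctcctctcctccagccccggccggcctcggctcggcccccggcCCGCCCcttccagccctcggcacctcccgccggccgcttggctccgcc
The GC box was found 0 times in the DDR1 window, 2 times in the MET window, 2 times in the AXL window and 4 times in the MERTK window. It was present in 42.6% of 35116 RefSeq windows of the same length, so these matches do not set the receptors apart. The AP-1 motif TGANTCA (6.57% of windows) and the TEAD motif GGAATG (11.9% of windows), each searched on both strands, had 0 matches in all 4. RefSeq lists 8 starts for DDR1. Counted from the most upstream, the windows of starts 3, 4 and 5 have 1 GC box each and that of start 6 has 3, while start 2 has 1 TEAD motif and start 8 has 1 AP-1 motif. AXL has a second listed start, whose window has 0 GC boxes and 1 TEAD motif. Gene-level counts do not show which start was used.

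Of the 8 genes, DDR1 alone passed the test, and it was lower in the knockdown. AXL, MET and MERTK also stood lower in both knockdown libraries, by 1.65-fold, 1.71-fold and 1.53-fold in the fit, without passing. GAS6 and TYRO3 had higher means in the knockdown, and MST1R and DDR2 had slightly lower ones, and none of the 4 passed in this fit, which takes the libraries as unpaired. All 8 genes passed the filter on low counts. The 1 call among them compares with 2.99% of all 13022 genes tested that were called at an adjusted p under 0.05 (1.96% lower and 1.03% higher). The knockdown libraries did not overlap the control libraries for 6 of the 8 genes, against 54.3% of all genes tested, and 4 of the 8 had an unadjusted p under 0.05, against 24.0% of all genes tested. The median log2 fold change was −0.45 over the 8 genes and 0.01 over all genes tested.

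**Figure D1:**
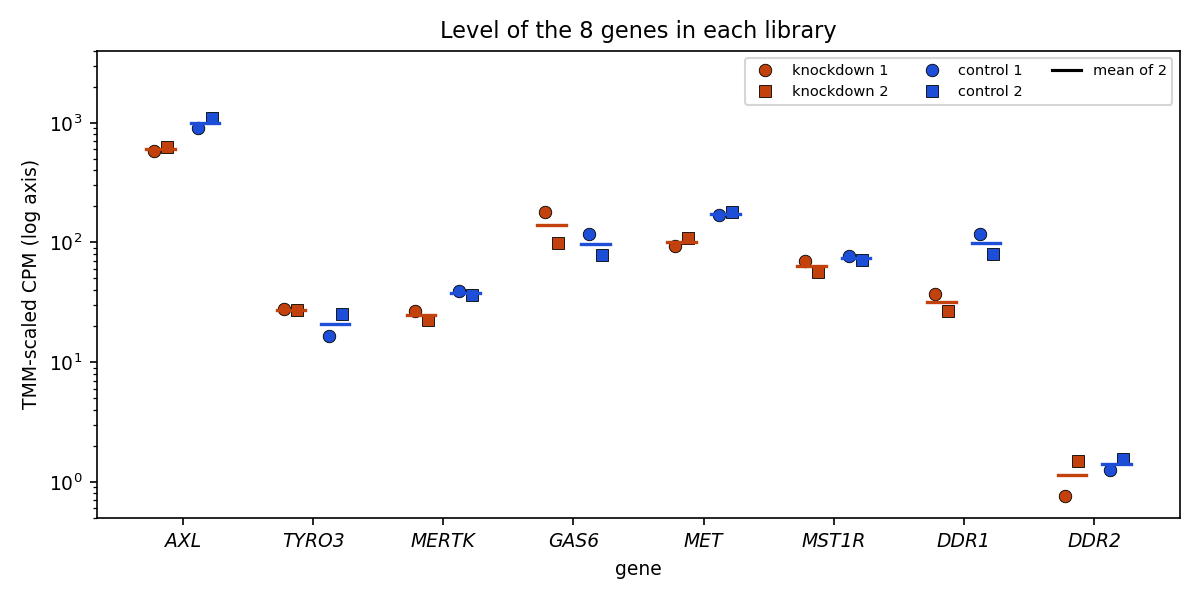
Level of each of the 8 genes in the 4 libraries, as TMM-scaled CPM on a log axis (vertical) by gene (horizontal), with knockdown left of control, circles for replicate 1, squares for replicate 2 and a line at the mean of 2. On this log axis DDR1 shows the widest gap between group means, 32.0 against 98.8 CPM, and AXL is the most abundant in every library.

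DDR1 encodes a collagen receptor tyrosine kinase that acts in epithelial cell adhesion and matrix remodelling. It lies on human chromosome 6. It had 391 and 359 counts in the knockdown libraries, against 1123 and 1040 counts in the control libraries. In scaled units these were 37.2 and 26.9 CPM in knockdown, against 117.2 and 80.4 CPM in control. Both knockdown libraries were below both control libraries, with 37.2 CPM in the highest knockdown library and 80.4 CPM in the lowest control library. The means were 32.0 ± 7.28 CPM in knockdown and 98.8 ± 26.0 CPM in control (SD, n = 2 each), so DDR1 fell 3.09-fold (log2 fold change −1.63 with an SE of 0.29; adjusted p = 0.0435 by the edgeR quasi-likelihood test). The 95% interval of the log2 fold change ran from −2.33 to −0.92. Counting error alone was small, with a pooled ratio of 0.327 (95% exact binomial interval 0.301 to 0.355), so the spread between libraries, not the depth, set the width of the first interval.

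DDR2, the second collagen receptor of the family, binds fibrillar collagens and lies on chromosome 1. It was close to the floor of detection, with 8 and 20 counts in the knockdown libraries and 12 and 20 counts in the control libraries. That is 0.76 and 1.498 CPM in knockdown and 1.25 and 1.55 CPM in control, and the groups overlapped. The log2 fold change was −0.29 with a 95% interval from −1.53 to 0.94 (edgeR adjusted p = 0.774), and the pooled counting interval alone ran from a ratio of 0.479 to 1.41. The first interval covers the spread between libraries as well as counting error. Both intervals include no difference, so whether DDR2 differed cannot be said from these libraries. Per kilobase of exon, DDR1 exceeded DDR2 by 93.8 and 34.4 times in the knockdown libraries and by 180 and 99.8 times in the control libraries.

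AXL, on chromosome 19, was the most abundant of the 8 genes. It had 6150 and 8346 counts in the knockdown libraries and 8619 and 14176 counts in the control libraries, or 584.8 and 625.1 CPM in knockdown against 899.7 and 1097 CPM in control. The groups did not overlap, and the control libraries lay further apart from each other than the knockdown libraries did. The means were 605.0 ± 28.5 CPM in knockdown and 998.1 ± 139 CPM in control (SD, n = 2 each), a log2 fold change of −0.72 (SE 0.21, 95% interval −1.22 to −0.23), which did not pass after adjustment over all genes (edgeR unadjusted p = 0.0109, adjusted p = 0.107). Without control replicate 2 the value was −0.57 (adjusted p = 0.344).

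MERTK, on chromosome 2, is the TAM receptor best known from macrophages and the retinal pigment epithelium, where it serves the uptake of dying cells and shed membrane. It stood at 26.7 and 22.6 CPM in the knockdown libraries, against 39.2 and 36.2 CPM in the control libraries, with no overlap. Its log2 fold change was −0.61 (SE 0.24, edgeR unadjusted p = 0.0408, adjusted p = 0.19). TYRO3, on chromosome 15, is the TAM receptor most prominent in the nervous system. It stood at 27.7 and 27.1 CPM in knockdown, against 16.6 and 25.1 CPM in control. The knockdown libraries were nearly equal and both above the control libraries, which were further apart, so the log2 fold change, 0.39 over all 4 libraries (SE 0.29, edgeR adjusted p = 0.459), was 0.13 without control replicate 1 and 0.72 without control replicate 2. The pseudogene TYRO3P was not among the counted symbols, and reads that fit both copies may be lost or shared.

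Among the 3 TAM receptors AXL dominated in every library. Taken per kilobase of exon, AXL made up 92.9% and 94.0% of the summed TAM receptor level in the knockdown libraries and 94.5% and 95.3% in the control libraries. MERTK made up 4.73% and 3.79% in knockdown and 4.59% and 3.51% in control, which overlapped. TYRO3 made up 2.39% and 2.22% in knockdown and 0.947% and 1.19% in control, with no overlap. These shares sum to the whole in each library and so are not independent of each other.

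GAS6, on chromosome 13, was the one ligand among the 8 genes, a secreted protein whose gamma-carboxylated domain binds phosphatidylserine. It had 1895 and 1330 counts in the knockdown libraries and 1119 and 1013 counts in the control libraries. This gave 180.2 and 99.6 CPM in knockdown against 116.8 and 78.4 CPM in control, so control replicate 1 was above knockdown replicate 2 and the groups overlapped. Compared at equal replicate number, GAS6 was higher in knockdown both times, though the labels do not say what that number marks. The log2 fold change was 0.52 (SE 0.34, 95% interval −0.30 to 1.34, edgeR adjusted p = 0.404), and it was 0.04 without knockdown replicate 1 and 0.89 without knockdown replicate 2. It was 0.84 without control replicate 1 and 0.26 without control replicate 2. GAS6 relative to AXL, both per kilobase of exon, was 0.606 and 0.313 in the knockdown libraries and 0.255 and 0.140 in the control libraries, with no overlap, though the gap between the nearest libraries (0.313 against 0.255) was smaller than the spread inside either group. GAS6-AS2, a long non-coding RNA gene beside GAS6, stood at 3.04 and 1.72 CPM in knockdown and 1.15 and 1.08 CPM in control (log2 fold change 1.08, edgeR adjusted p = 0.237), and its log2 fold change was 0.63 without knockdown replicate 1 and 1.44 without knockdown replicate 2. In GENCODE, 333 exon bases of GAS6 are shared with GAS6-AS1 on the opposite strand, and with no stated strand setting reads of the pair cannot be told apart. The same limit holds for MST1R, which shares 327 and 29 exon bases with antisense genes, and for AXL, which shares 67.

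MET, on chromosome 7, drives growth, scattering and invasion of epithelial cells when HGF binds. It stood at 94.3 and 109.4 CPM in the knockdown libraries, against 168.4 and 180.8 CPM in the control libraries. The groups were well separated relative to the gap between replicates. The means were 101.9 ± 10.7 CPM in knockdown and 174.6 ± 8.77 CPM in control (SD, n = 2 each), a log2 fold change of −0.78 (SE 0.21, 95% interval −1.28 to −0.28). MET did not pass after adjustment (edgeR unadjusted p = 0.00819, adjusted p = 0.0933), and it had the smallest p of the 8 genes after DDR1. MST1R, on chromosome 3, is the close relative of MET. It stood at 69.9 and 56.4 CPM in knockdown, against 76.7 and 70.8 CPM in control. The groups did not overlap, but the gap was small, with 69.9 against 70.8 CPM between the nearest libraries (log2 fold change −0.22, SE 0.23, 95% interval −0.77 to 0.32, edgeR adjusted p = 0.596). Without knockdown replicate 2 the log2 fold change of MST1R was −0.08, and without knockdown replicate 1 it was −0.38.

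**Figure D2:**
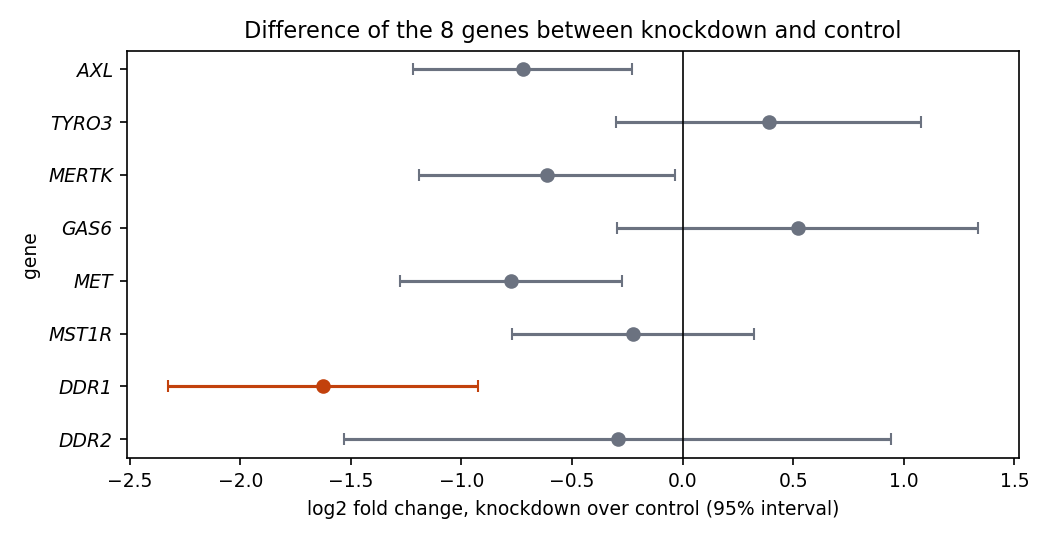
Log2 fold change of knockdown over control (horizontal) for each of the 8 genes (vertical), with 95% intervals from the edgeR fit; the coloured point passed the adjusted threshold and grey points did not. DDR1 lies at −1.63, MET at −0.78, AXL at −0.72 and MERTK at −0.61, while the intervals of TYRO3, GAS6, MST1R and DDR2 include 0.

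Levels of different genes were compared per kilobase of exon (the union of exons in GENCODE). In control cells the order was AXL at 203.9 ± 28.4, GAS6 at 39.2 ± 10.9, MET at 26.1 ± 1.31, DDR1 at 18.5 ± 4.88, MST1R at 15.5 ± 0.881, MERTK at 8.59 ± 0.491, TYRO3 at 2.32 ± 0.671 and DDR2 at 0.137 ± 0.0203 CPM per kilobase (SD, n = 2). DDR1 and MST1R overlapped there, and the other neighbours in that order did not. In knockdown cells the order was AXL at 123.6 ± 5.82, GAS6 at 56.2 ± 22.9, MET at 15.2 ± 1.596, MST1R at 13.2 ± 2.00, DDR1 at 6.01 ± 1.36, MERTK at 5.62 ± 0.660, TYRO3 at 3.04 ± 0.0437 and DDR2 at 0.110 ± 0.0509 CPM per kilobase (SD, n = 2). MET overlapped MST1R and DDR1 overlapped MERTK in knockdown cells. By exon length, DDR1 thus stood beside MST1R in control cells and beside MERTK in knockdown cells. With the longest coding length in place of exon length, control means were 41.3 for MET, 35.8 for DDR1 and 17.6 for MST1R (CPM per coding kilobase), which put DDR1 nearer to MET. In knockdown cells they were 15.0 for MST1R, 11.6 for DDR1, 10.3 for TYRO3 and 8.23 for MERTK. There TYRO3 stood above MERTK and next to DDR1.

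Against the other receptor tyrosine kinases of the line, AXL was among the leading receptors in both groups. Of 58 receptor genes with a length, AXL made up 21.4% and 25.8% of the summed level per kilobase in the knockdown libraries and 24.2% and 27.9% in the control libraries, with overlap between groups. EPHA2 was the one receptor gene with a higher mean per kilobase than AXL. By coding length AXL led in control cells. DDR1 made up 1.25% and 1.02% in knockdown and 2.89% and 1.88% in control, with no overlap, and its rank by mean level was 14 in knockdown and 9 in control. Its ranks by coding length were 15 in knockdown and 7 in control. The summed level of all 58 receptors was 559.2 and 495.3 CPM per kilobase in knockdown and 759.8 and 804.2 CPM per kilobase in control.

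**Figure D3:**
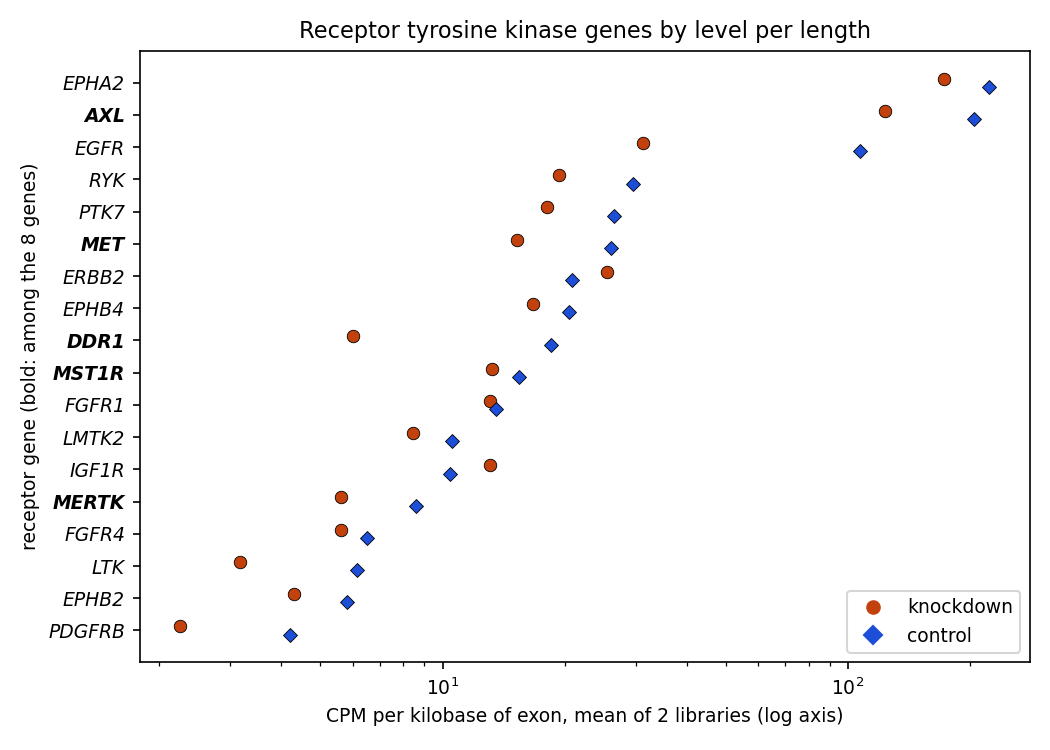
Mean level per kilobase of exon on a log axis (horizontal) of the 18 receptor tyrosine kinase genes highest in control (vertical), with circles for knockdown and diamonds for control; genes in bold are among the 8. AXL is second in both groups, at 123.6 and 203.9 CPM per kilobase, and DDR1 is at 6.01 in knockdown and 18.5 in control.

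Other receptor tyrosine kinases also stood lower more often than higher. Of 51 such genes, 27 were tested, 1 rose and 1 fell, where 1.03% of all genes tested were called higher and 1.96% lower. Of the 27 log2 fold changes 22 were negative, with a median of −0.43 beside 0.01 for all genes tested. The median of the 8 genes, −0.45, was close to that. EGFR, the receptor for epidermal growth factor, fell 3.43-fold to 353.8 ± 71.4 CPM in knockdown, against 1212 ± 210.1 CPM in control (SD, n = 2 each; edgeR adjusted p = 0.0303). ROR1, a Wnt5a receptor, rose 3.53-fold to 96.6 ± 2.30 CPM in knockdown, against 27.4 ± 1.09 CPM in control (SD, n = 2 each; edgeR adjusted p = 0.0272).

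The ligands of these receptors differed in whether the cells made them at all. HGF had 1 count, in knockdown replicate 1, and 0 counts in both control libraries, where the limit that a count of 0 allows is 0.313 and 0.232 CPM, so any difference between the groups is below what this depth can show. MST1 stood at 8.27 and 1.72 CPM in knockdown and 10.5 and 1.93 CPM in control (log2 fold change −0.32, SE 0.91, edgeR adjusted p = 0.869), and near-identical MST1 pseudogenes can share its reads. PROS1, which encodes protein S, stood at 70.8 and 79.2 CPM in knockdown and 86.5 and 50.3 CPM in control, with the control libraries on either side of the knockdown libraries (log2 fold change 0.13, SE 0.30, edgeR adjusted p = 0.824). Of 6 tested genes for TAM ligands and gamma-carboxylation, 1 rose and 0 fell, where 1.03% of all genes tested were called higher and 1.96% lower. Their median was −0.05, and it was 0.22 without control replicate 1 and −0.25 without control replicate 2. The gene that rose was NQO1, a quinone reductase that can act on vitamin K and is also a standard oxidative stress gene, at 819.0 ± 121 CPM in knockdown and 352.6 ± 34.5 CPM in control (SD, n = 2 each; 2.32-fold, edgeR adjusted p = 0.0435).

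HGF, MST1, the proteases that activate their products and the inhibitors of these proteases form a list of 12 genes that leaned lower without a call. Of 6 tested, 6 had a negative log2 fold change with a median of −0.40, and 0 passed with edgeR, DESeq2 or limma-voom. An edgeR unadjusted p under 0.05 was seen for 2 of the 6, against 24.0% of all genes tested. ST14, the membrane serine protease matriptase, stood at 3.04 and 2.85 CPM in knockdown and 8.46 and 6.57 CPM in control (edgeR adjusted p = 0.0865). SERPINA5, a serpin that inhibits such proteases, stood at 3.42 and 3.07 CPM in knockdown and 6.78 and 6.27 CPM in control (edgeR adjusted p = 0.142). Leaving out control replicate 2 put the median at −1.06 over 7 tested genes, and leaving out knockdown replicate 1 put it at −0.86 over 8. The filter on low counts was run again in these fits, so these medians are not over the same 6 genes.

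Among collagen chains, the ligands of DDR1 and DDR2, 11 of 19 were tested, 2 rose and 0 fell, with a median of −0.08. Over all genes tested, 1.03% were called higher and 1.96% lower. COL8A1, a network-forming short-chain collagen, rose 3.91-fold to 113.8 and 89.4 CPM in knockdown, against 32.2 and 19.9 CPM in control (edgeR adjusted p = 0.0361). COL5A2, a fibrillar collagen V chain, stood at 4.28 and 3.67 CPM in knockdown and 0.21 and 0.46 CPM in control (log2 fold change 3.46, SE 0.53, edgeR adjusted p = 0.0357), on 2 and 6 counts in the control libraries. The median was −0.64 over 12 tested chains without knockdown replicate 1, and 0.37 over 11 without knockdown replicate 2.

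Co-receptors and membrane partners were the list with the most calls. Of 15 tested, 5 fell and 0 rose, where 1.96% of all genes tested were called lower and 1.03% higher. Of the 15, 13 had a negative log2 fold change, and the median was −0.88, beside 0.01 for all genes tested. Like the other lists, it was chosen with earlier results of these data known, which may bear on its number of calls. ITGB4, the hemidesmosomal integrin beta chain that can act with MET, fell 8.80-fold to 29.6 and 25.4 CPM in knockdown, against 346.0 and 137.7 CPM in control (edgeR adjusted p = 0.0315). ITGB3, the beta chain of the vitronectin receptor, fell 12.4-fold to 3.99 and 4.34 CPM in knockdown, against 63.0 and 41.2 CPM in control (edgeR adjusted p = 0.0229). CDCP1, a transmembrane substrate of Src kinases, fell 2.87-fold to 102.5 and 89.8 CPM in knockdown, against 303.3 and 247.9 CPM in control (edgeR adjusted p = 0.0327). NRP2, a neuropilin, fell 3.21-fold to 12.6 and 9.96 CPM in knockdown, against 43.6 and 28.9 CPM in control (edgeR adjusted p = 0.0462). The fifth was ITGA2, the alpha chain of a collagen-binding integrin, which fell 2.14-fold to 185.4 ± 17.8 CPM in knockdown, against 397.3 ± 19.5 CPM in control (SD, n = 2 each; edgeR adjusted p = 0.0466); it was named after its values were seen. Leaving out knockdown replicate 2 left 3 calls in this list.

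The signal chain below the receptors showed no such lean. Of 26 tested adaptors and effectors, 0 passed with edgeR or limma-voom. With DESeq2 5 passed, where 1129 of all 13022 genes did. An edgeR unadjusted p under 0.05 was seen for 6 of the 26, near the 24.0% of all genes tested. The log2 fold changes were 13 positive and 13 negative with a median of 0.06. Leaving out 1 library gave 0 to 3 calls, the 3 without knockdown replicate 1. SRC, a kinase that several of these receptors recruit, stood at 39.8 and 36.9 CPM in knockdown and 79.5 and 76.6 CPM in control (log2 fold change −1.03, SE 0.22, edgeR adjusted p = 0.0594). STAT3, a transcription factor that MET activates, stood at 269.7 and 243.7 CPM in knockdown and 142.6 and 134.4 CPM in control (log2 fold change 0.89, SE 0.20, edgeR adjusted p = 0.067). Among 19 genes of receptor shedding and down-regulation, 1 fell and 0 rose, with a median of −0.06, where 1.96% of all genes tested were called lower. TIMP2, a metalloprotease inhibitor, fell 2.28-fold to 109.2 and 106.1 CPM in knockdown, against 242.3 and 247.4 CPM in control (edgeR adjusted p = 0.0402), and 0 genes of that list were called without knockdown replicate 2.

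**Figure D4:**
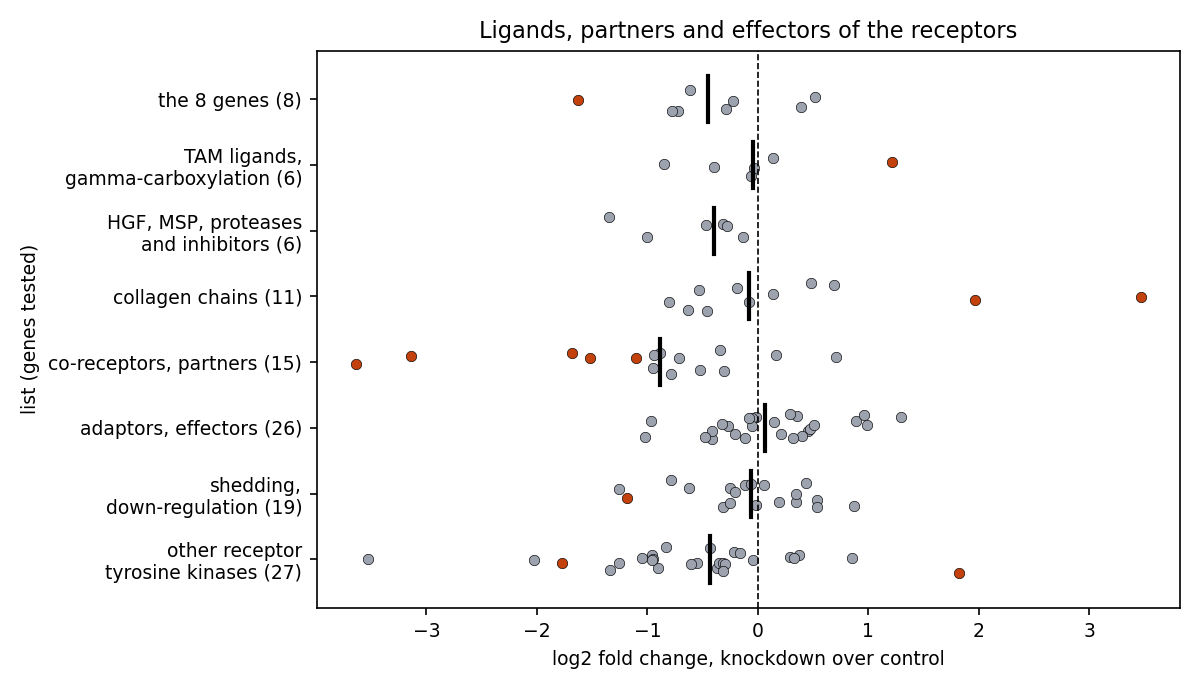
Log2 fold change of knockdown over control (horizontal) for each tested gene of the 8 and of 7 lists of ligands, partners, effectors and other receptors (vertical, number tested in brackets), with coloured points for genes past the adjusted threshold, thick bars at list medians and a dashed line at the median of all genes. The co-receptor list has its median at −0.88, the 8 genes at −0.45 and the adaptors at 0.06.

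The genes whose levels followed DDR1 most closely over the 4 libraries were found among all genes that averaged 5 CPM or more, by the root-mean-square difference of centred log2 CPM profiles. NRP2 was nearest, with a difference of 0.049. NPTXR, a neuronal pentraxin receptor, followed at 0.052, with 27.9 and 20.6 CPM in knockdown and 94.3 and 66.3 CPM in control. EBF4, a transcription factor of the early B cell factor family, was next at 0.056, with 2.95 and 2.02 CPM in knockdown and 10.4 and 7.66 CPM in control. EBF4 did not pass (edgeR adjusted p = 0.0576), while NRP2 and NPTXR did. All 3 shared with DDR1 the order of the libraries, with control replicate 1 highest and knockdown replicate 2 lowest, which follows from how they were picked. With 4 libraries, many genes can have such a profile.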

How the data were processed

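RNA-seq of 4 MDA-MB-231 libraries, 2 knockdown and 2 control, was used. The authors deposited raw counts of reads for each gene symbol, with totals that differ between libraries. Tools in the submitters' processing notes are STAR 2.5.2b, HTSeq 0.6.1, cutadapt and limma, and the builds there are GRCh37 and hg19. What each did, which annotation and strand setting were used and whether rows were filtered is not given in the sources used here. Within a group the counts differed by more than sampling noise (a chi-square of 44.5 per degree of freedom in knockdown and 40.4 in control), so each library counts as 1 sample.

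Groups came from the labels. The test was run in edgeR 4.0.16 under R 4.3.3 (TMM, filterByExpr with minimum count 10 and minimum total 15, leaving 13022 genes, quasi-likelihood test without covariate, Benjamini-Hochberg over all of them, threshold 0.05). SE is the log2 fold change over the root of the F statistic, and intervals are 95%. Intervals on counts, and limits at 0 (3 counts), cover counting error only. Lengths are from GENCODE v29 (GRCh38) by symbol. Alternatives used other scalings and filters, DESeq2 1.42.0, limma 3.58.1 (voom), the replicate number as a block, and each library left out.

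The 8 genes and the lists were chosen with earlier results of these data known. Named were the 8 genes, TRMT13, PROS1, HGF, MST1, GAS6-AS2, in each list at most 4 called genes by adjusted p, or failing that at most 2 uncalled ones by p, and the 3 profiles nearest to each called member. The test was checked on simulated counts, where it missed most of the smaller planted changes, so a gene that did not pass here may still differ. It found most of the larger ones and also called a few genes left unchanged. Any call, such as that of DDR1 close to the threshold, may be false, though how near the threshold the false simulated calls lay was not recorded. The simulated libraries were drawn independently, whereas replicate deviations in the data correlated across genes (r = 0.639).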

Additional observations from a re-analysis of the deposited data

How the results depend on the processing

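DDR1 kept its direction and its call under all 12 alternatives (log2 fold change −1.87 to −1.33, adjusted p up to 0.0499, at the filter of a mean of 5 CPM). In 4 of these 1 library is left out, and the lone library of that group is assumed to vary like the other group. AXL, MET, MERTK and MST1R stayed negative and TYRO3 and GAS6 positive under all 12. The labels do not state that a replicate number marks a shared culture or day, but the titles give adjacent library numbers to the knockdown and control libraries of equal replicate number, replicate deviations correlated across genes (r = 0.639), and 7 of the 8 genes differed between replicates 1 and 2 in the same direction in both groups. With the replicate block 5 of the 8 genes were called, with AXL at −0.72 (adjusted p = 0.00106), MET at −0.78 (0.000278), MERTK at −0.62 (0.00685) and GAS6 at 0.49 (0.0157) added to DDR1, and 5227 genes in all, 2517 higher and 2710 lower. With no filter on low counts 3 were called, AXL at −0.72 and MET at −0.77 besides DDR1, and 1949 genes in all, 826 higher and 1123 lower. DESeq2 called 1129 genes, 458 higher and 671 lower, and 1 of the 8. The cause of these differences in counts was not tested.

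Leaving out 1 library gave 678 to 935 called genes, against 389 with all 4 libraries, 198 to 363 higher and 407 to 572 lower, and 1 of the 8 each time. Ranges of the log2 fold change over those fits were −0.85 to −0.57 for AXL, −0.89 to −0.67 for MET, −0.73 to −0.50 for MERTK, 0.04 to 0.89 for GAS6, 0.13 to 0.72 for TYRO3, −0.38 to −0.08 for MST1R and −0.88 to 0.10 for DDR2, which turned positive (0.097) without knockdown replicate 1. The median of the mesenchymal markers turned to 0.045 without control replicate 2 and 0.047 without knockdown replicate 1, and was −0.65 without knockdown replicate 2. DDR2 was not tested at the filter of a mean of 5 CPM. Coding length, chosen after seeing the data, changed ranks among receptors, for example from 10 to 14 for MST1R in both groups. Calls per list also moved, as did calls over all genes. Over all genes 389 of 13022 were called in the main fit and 1129 of 13022 with DESeq2. With no filter 1949 of 18632 were called, and with the block 5227 of 13022. Co-receptors had 5 of 15 called, against 9 of 15 with DESeq2, 10 of 15 with no filter and 11 of 15 with the block. Other receptor tyrosine kinases had 2 of 27, against 7 of 45 with no filter and 15 of 27 with the block. Adaptors had 0 of 26, against 5 of 26 with DESeq2 and 5 of 27 with no filter. With the block they had 10 of 26, near the share over all genes. Shedding genes had 1 of 19, against 2 of 19 with DESeq2, 3 of 21 with no filter and 7 of 19 with the block. Collagen chains had 2 of 11 against 5 of 11 with the block, and TAM ligand genes 1 of 6 against 3 of 6. GAS6-AS2 had 0 against 1, luminal markers 0 of 6 against 4 of 6, and HGF and MST1 with their proteases 0 of 6 against 3 of 6. That last list had 1 of 12 called with no filter. Mesenchymal markers had 0 of 7, against 2 of 7 with DESeq2, 3 of 7 with no filter and 3 of 7 with the block.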

Other observations

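MST1, the ligand gene of MST1R, differed by replicate number more than by group. It had 87 counts in knockdown replicate 1 and 23 in knockdown replicate 2, against 101 in control replicate 1 and 25 in control replicate 2. Its SD was 4.63 CPM in knockdown and 6.09 CPM in control, close to its means of 4.998 CPM in knockdown and 6.24 CPM in control.

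CD44, a co-receptor of MET that is also a mesenchymal marker, stood at 155.7 and 160.3 CPM in knockdown and 272.7 and 273.0 CPM in control. Its replicates lay close together in both groups, and its log2 fold change of −0.79 (edgeR adjusted p = 0.079) did not pass.

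Of the luminal genes, GATA3 had 4.85 and 4.19 CPM in knockdown, against 8.46 and 8.74 CPM in control (edgeR adjusted p = 0.149). FOXA1 had 6.28 and 6.67 CPM in knockdown, against 10.8 and 10.98 CPM in control (edgeR adjusted p = 0.195). Of the 6 luminal markers tested, 0 passed with edgeR, DESeq2 or limma-voom, and 2 had an edgeR unadjusted p under 0.05, against 24.0% of all genes tested.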
